A study of Homo sapiens with 6 samples.

Results

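The genes that encode the proteins of the cytoplasmic ribosome were examined in T47D, a widely used human cell line from a luminal breast cancer that expresses estrogen receptor. Members were taken by symbol from a table of 17891 genes. A symbol of RPS or RPL followed by a number, with at most a short suffix, counted, as did RPLP0, RPLP1, RPLP2 and RPSA. The S6 kinase genes, whose symbols also begin with RPS, were left out. This gave 85 genes, 33 for the small subunit and 52 for the large. Of these, 77 were canonical ribosomal protein genes (31 small, 46 large), 7 were divergent paralogs whose symbols carry an L (RPS27L, RPL3L, RPL7L1, RPL10L, RPL22L1, RPL26L1 and RPL39L) and 1 was RPS4Y2, which did not pass the filter on low counts.

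RNA was sequenced from 6 libraries of T47D cultures. In the PRL group (3 libraries) the cells carried a puromycin-selectable PLVX lentivirus with PRL, the gene of prolactin, a pituitary hormone that also acts in breast epithelium. In the control group (3 libraries) they carried the same lentivirus system without PRL, so both groups had been transduced and selected. The series describes 3 biological replicates for each. Whether the selected cells were a pool or a single clone, and which promoter drove PRL, is not given in the sources used here.

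A ribosome has a small subunit, which reads the mRNA, and a large subunit, which joins amino acids and releases the growing chain through an exit tunnel. Each subunit is a core of ribosomal RNA with one copy of nearly every ribosomal protein, so cells make these proteins in matched amounts. Their mRNAs are short, abundant and typically begin with a C followed by an unbroken run of pyrimidines, the 5′ terminal oligopyrimidine (TOP) motif, through which mTOR and the RNA-binding protein LARP1 control how well they are translated. A few genes have divergent paralogs that can replace the canonical protein in some tissues or states.

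Total counts ranged from 16211146 to 17402348 per library, and levels are given as CPM, read counts scaled to library size and by TMM, which equalises the bulk of genes between libraries, unless TPM (transcript levels per length) is named. PRL was at 0.203, 0.191 and 0.0624 CPM in the controls and 458, 446 and 444.5 CPM in the PRL libraries. Chi-square per gene was 13 to 24.8 between control libraries and 1.68 to 2.2 between PRL libraries, so the controls were the more variable group. Control 1 stood apart for the ribosomal protein genes: all 77 canonical genes had their highest control value there. Summed CPM of 8 luminal markers was 19810 to 25900 in the controls and 15480 to 15950 in the PRL libraries. The keratins KRT8, KRT18 and KRT19 made up most of that sum and fell, as did ESR1, while PGR (log2 fold change 0.85), FOXA1 (0.49) and GATA3 (0.23) rose and EPCAM (0.09) did not pass. For basal markers (3 genes) it was 1.31 to 2.3 against 3.47 to 4.51, with KRT5 at 2 counts or fewer in every library. Fibroblast markers (4 genes) summed to 42.4 to 59.2 against 71.3 to 72.0 CPM, nearly all from COL1A1, with DCN at 2 counts or fewer in every library. Leukocyte markers (4 genes) summed to 4.31 to 6.19 against 6.70 to 7.76 CPM and endothelial markers (3 genes) to 0.936 to 1.53 against 0.881 to 1.08 CPM, with CDH5 at 0 in the controls. The part of these differences in the results below was not tested.

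The first bases of 11 of these transcripts are shown because a TOP-like run was found in most of the canonical genes and in few of the paralogs examined. Each window holds the 15 bases before the annotated start and 15 from it on, read on the gene's strand (RefSeq, GRCh38.p14). Capitals mark an unbroken pyrimidine run of at least 5 bases that opens with C within 5 bases of the start. Where a gene had several annotated starts, the start with the longest run was kept, here and in the counts below. This can raise the share of genes with a run. RPS27, RPL22 and RPL26 come with their paralogs; RPL7L1 is shown alone; RPLP0, RPS3A, RPL9 and RPL10A are canonical genes with large and small changes.
RPS27, chr1:153990747-153990776, plus strand: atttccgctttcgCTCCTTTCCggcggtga
RPS27L, chr15:63157463-63157492, minus strand: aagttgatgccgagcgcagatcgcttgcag
RPL22, chr1:6199581-6199610, minus strand: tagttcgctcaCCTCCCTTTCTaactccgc
RPL22L1, chr3:170870181-170870210, minus strand: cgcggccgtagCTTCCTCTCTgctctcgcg
RPL26, chr17:8383179-8383208, minus strand: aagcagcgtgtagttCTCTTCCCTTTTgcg
RPL26L1, chr5:172958865-172958894, plus strand: ggcggggcggcggccacaaacccgcaggca
RPL7L1, chr6:42879601-42879630, plus strand: cggaagtgcggcgccgtagctaggagcgga
RPLP0, chr12:120201097-120201126, minus strand: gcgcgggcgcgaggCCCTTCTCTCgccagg
RPS3A, chr4:151099613-151099642, plus strand: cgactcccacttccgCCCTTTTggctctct
RPL9, chr4:39458908-39458937, minus strand: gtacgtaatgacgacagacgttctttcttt
RPL10A, chr6:35468386-35468415, plus strand: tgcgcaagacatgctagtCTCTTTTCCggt

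A start was found for 68 of the 85 genes. The run was present in 53 of 62 canonical genes (85.5%) and in 1 of 5 paralogs, RPL22L1. Among 14125 genes of the table with a start, 4058 (28.7%) had it. The canonical genes without it can still hold pyrimidines farther from the annotated start, as the window of RPL9 above does. No match says only that no such run opened with C within 5 bases of the starts examined.

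Nearly the whole set was lower in the PRL cells. All 77 canonical genes fell, by a median log2 fold change of -0.98 (1.97-fold), with the middle 50% of them between -1.14 and -0.80. The largest fall was that of RPL9 (-1.63) and the smallest that of RPL10A (-0.37). Of the 84 members tested, 82 fell, 0 rose and 2 did not pass the threshold of an edgeR adjusted p of 0.05. Across all 14076 genes tested, 30.5% fell and 32.4% rose, and the median log2 fold change was 0.01. The edgeR adjusted p-values of the canonical genes ran from 5.3e-06 to 0.0074. In 82 of the 84 members every PRL library lay below every control library, as it did in 33.5% of all genes.

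The size of the fall varied within the family. Of the canonical genes, 32 were at least 2-fold lower (16 small, 16 large), 40 were 1.5-fold to 2-fold lower and 5 were less than 1.5-fold lower (1 small, 4 large). Within a group the genes moved together: all 77 were highest among controls in control 1, and 73 had their lowest value of all 6 libraries in PRL 1. Without control 1 all 77 canonical genes still fell, by a median of -0.81. In bulk RNA, fewer cells with a transcript and less of it per cell cannot be told apart, and a lower share of counts does not give the amount of RNA per cell.

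**Figure D1:**
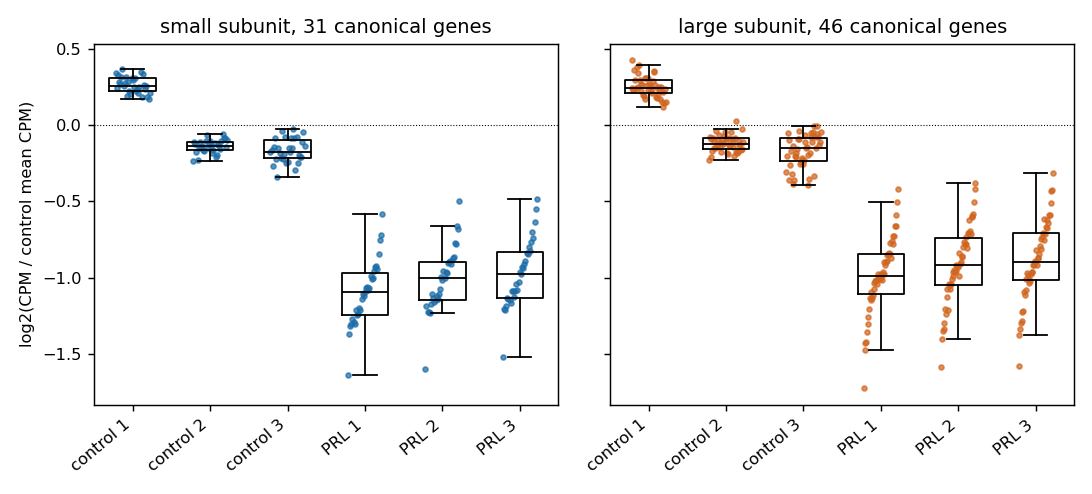
Log2 of the CPM of each canonical gene over its mean in the 3 controls, by library, for 31 small-subunit and 46 large-subunit genes (points: genes; box: middle 50% and median; whiskers: farthest gene within 1.5 box lengths). Control 1 sits above the other controls for every gene, and the PRL libraries lie below all controls.

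**Figure D2:**
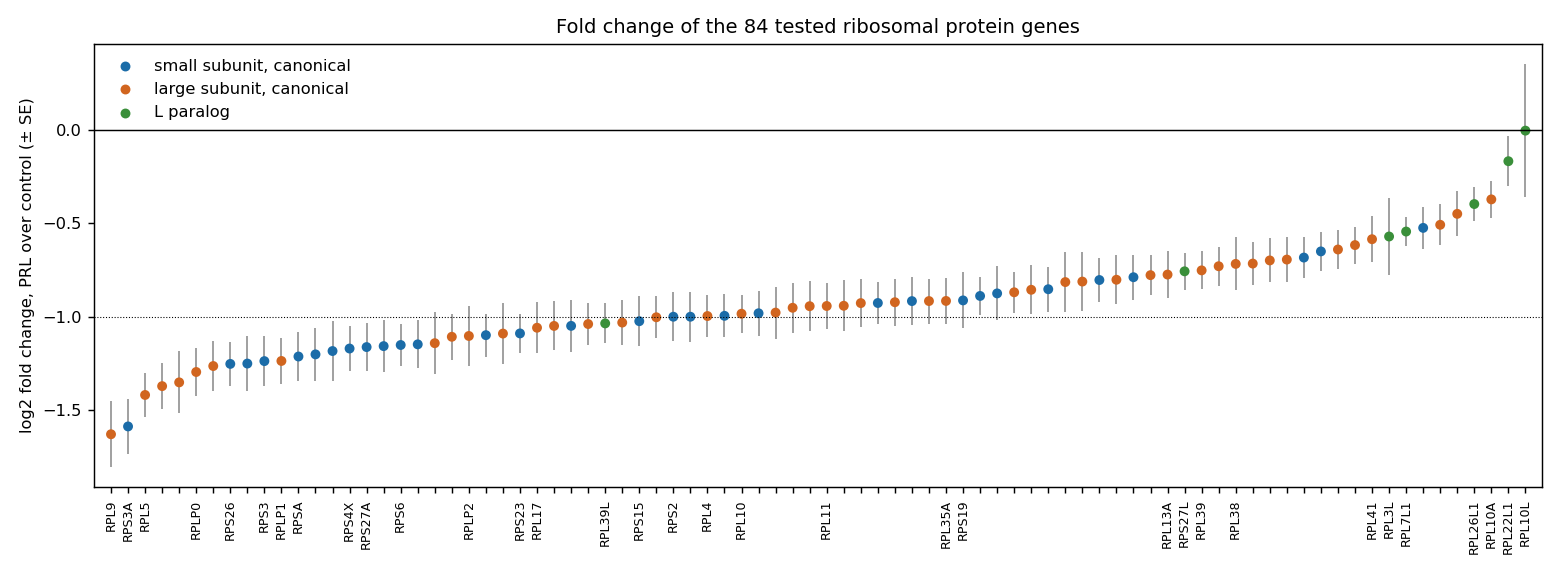
Log2 fold change of PRL over control with its standard error for the 84 members tested, in order of size; the dotted line marks a 2-fold fall. Names are given for the paralogs, the members with fixed roles and the ends of the range. The canonical genes run from RPL9 (-1.63) to RPL10A (-0.37), and RPL22L1 (-0.17) and RPL10L (0.00) lie at the right end.

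Ribosomal protein genes took 18.6%, 16% and 15.5% of all gene counts in the controls (16.7% ± 1.66, SD, n = 3) and 10.0%, 10.5% and 10.6% in the PRL libraries (10.4% ± 0.289, n = 3). The groups did not overlap. The small subunit's share went from 6.12% ± 0.640 to 3.62% ± 0.117 of counts, and the large subunit's from 10.6% ± 1.02 to 6.74% ± 0.170 (SD, n = 3 each). The difference in the share of counts on ribosomal protein genes was -6.37 percentage points, and -5.42 without control 1. In TPM, which corrects for transcript length, the set held 33.2%, 30.4% and 30.0% of the controls and 22.2%, 22.8% and 22.9% of the PRL libraries.

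The small subunit's genes were lower by somewhat more. The median log2 fold change was -1.02 over the 31 canonical small-subunit genes and -0.93 over the 46 of the large subunit. The ratio of summed small-subunit CPM to summed large-subunit CPM was 0.583, 0.571 and 0.577 in the controls and 0.532, 0.539 and 0.539 in the PRL libraries. These means, 0.577 ± 0.00621 and 0.536 ± 0.00393 (SD, n = 3), differed by more than the spread between libraries, and the groups did not overlap. Being a score over the members, it was given no p-value.

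**Figure D3:**
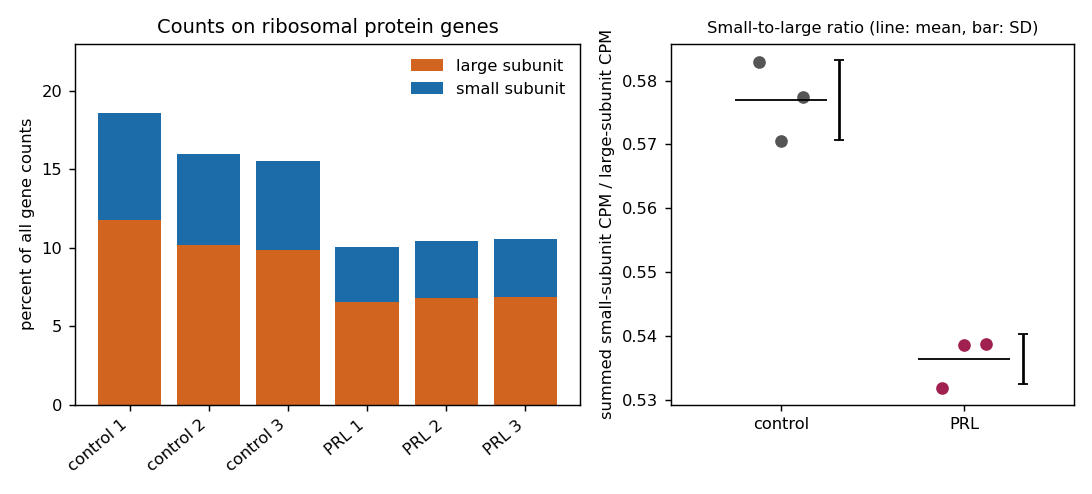
Left, percent of all gene counts on ribosomal protein genes in each library, split by subunit. Right, the ratio of summed small-subunit to large-subunit CPM (points: libraries; line: mean; bar: SD, n = 3); the vertical axis does not start at 0, and the 3 PRL libraries (0.532 to 0.539) lie below the 3 controls (0.571 to 0.583).

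Among small-subunit genes RPS3A, whose protein sits near where the mRNA leaves the small subunit, fell most. It was at 2658, 1781 and 1859 CPM in the controls and 674, 693 and 731 CPM in the PRL libraries. Every PRL library lay far below every control, and the log2 fold change was -1.59 (SE 0.15 and edgeR adjusted p = 1.0e-05), or -1.37 without control 1. RPS26, which contacts mRNA upstream of the decoding site and is mutated in Diamond-Blackfan anemia, was at 1164, 914 and 879 CPM against 382, 433 and 427 CPM. Its log2 fold change was -1.25 (SE 0.12).

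Genes for proteins at the mRNA entry and decoding sites fell as well. RPS3, which lines the mRNA entry channel and also acts in DNA repair, was at 5442, 3960 and 4049 CPM in the controls and 1819, 1918 and 1972 CPM in the PRL libraries. That is a log2 fold change of -1.24 (SE 0.13). RPS2, its neighbour at the channel, was at 10120, 7725 and 7675 CPM against 4065, 4383 and 4319 CPM (log2 fold change -1.0, SE 0.13). RPS23 and RPS15, which reach into the decoding region, had log2 fold changes of -1.09 (SE 0.11) and -1.02 (SE 0.13). In each of these genes the lowest control lay well above the highest PRL library.

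RPS6, the protein phosphorylated by S6 kinase downstream of mTOR, was at 2983, 2330 and 2543 CPM in the controls and 1139, 1202 and 1198 CPM in the PRL libraries. The log2 fold change was -1.15 (SE 0.11 and edgeR adjusted p = 1.3e-05). RPSA, also known as the laminin receptor precursor, was at 2375, 1677 and 1852 CPM against 815, 838 and 896 CPM (-1.21, SE 0.13). RPS27A, which is made as a fusion with ubiquitin, had a log2 fold change of -1.16 (SE 0.13), the X-linked RPS4X -1.17 (SE 0.12) and RPS19, the gene most often mutated in Diamond-Blackfan anemia, -0.91 (SE 0.15). All 5 passed the threshold, with no overlap between groups.

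The small-subunit genes that fell least were RPS9, RPS18, RPS25 and RPS27. RPS27, a zinc-finger protein first known as metallopanstimulin, was at 2855, 2312 and 2250 CPM in the controls and 1648, 1749 and 1763 CPM in the PRL libraries, with a log2 fold change of -0.52 (SE 0.11 and edgeR adjusted p = 0.0022). RPS25, needed by several viral internal ribosome entry sites, was at 1700, 1366 and 1466 CPM against 917, 940.5 and 1032 CPM (-0.65, SE 0.11). RPS18 and RPS9 had log2 fold changes of -0.68 (SE 0.11) and -0.79 (SE 0.12). The fall of RPS27 was thus 1.44-fold where that of RPS3A was 3.0-fold. On log2(TPM + 1) the call of RPS27 was lost (-0.08, limma adjusted p = 0.146).

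Of the large subunit, RPL9 fell most, from 2563, 1629 and 1544 CPM in the controls to 579, 638 and 639.7 CPM in the PRL libraries. The log2 fold change was -1.63 (SE 0.18 and edgeR adjusted p = 2.6e-05), a 3.09-fold fall, or -1.35 without control 1. RPL7 was at 3132, 2309 and 2580 CPM against 995, 1047 and 1060 CPM (-1.37, SE 0.12). RPL13 was at 7592, 5573 and 4622 CPM against 2209, 2349 and 2418 CPM (-1.35, SE 0.17). In these genes the controls themselves varied widely, and their lowest value still lay above every PRL library.

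RPL5 and RPL11 bind 5S ribosomal RNA in a particle that enters the large subunit and, when assembly is disturbed, holds back MDM2 so that p53 builds up. RPL5 was at 1854, 1482 and 1363 CPM in the controls and 564, 592 and 602 CPM in the PRL libraries, a log2 fold change of -1.42 (SE 0.12). Its edgeR adjusted p of 5.3e-06 was the smallest among the canonical genes. RPL11 was at 3065, 2542 and 2257 CPM against 1305, 1382 and 1408 CPM, a log2 fold change of -0.94 (SE 0.12). The partners thus fell 2.67-fold and 1.92-fold.

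The stalk that recruits translation factors to the large subunit is built from RPLP0 and dimers of RPLP1 and RPLP2. RPLP0, often used as a reference gene in quantitative PCR, was at 7040, 5300 and 5589 CPM in the controls and 2330, 2427 and 2552 CPM in the PRL libraries. The log2 fold change was -1.29 (SE 0.13). RPLP1 was at 3254, 2553 and 2445 CPM against 1152, 1168 and 1184 CPM (-1.24, SE 0.12), and RPLP2 at 2023, 1553 and 1224 CPM against 751, 691 and 794 CPM (-1.10, SE 0.16). The 3 stalk genes fell by similar amounts, 2.15-fold to 2.45-fold. RPL13A, another common reference gene and a part of the GAIT complex that silences inflammatory mRNAs, fell less: 3560, 2615 and 2853 CPM against 1680, 1813 and 1788 CPM (-0.77, SE 0.12). The difference between RPLP0 and RPL13A was not tested.

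Genes for proteins of the exit tunnel and of subunit joining fell too. RPL4 and RPL17, which line the tunnel, had log2 fold changes of -1.0 (SE 0.11) and -1.06 (SE 0.14), and RPL39, a small protein near the tunnel's end, -0.75 (SE 0.10). RPL10, a late-joining protein needed for the subunits to meet, was at 1794, 1496 and 1495 CPM in the controls and 776, 827 and 817 CPM in the PRL libraries (-0.98, SE 0.10). RPL35A, mutated in some Diamond-Blackfan anemia families, had -0.91 (SE 0.12). RPL38, whose loss in mice alters the translation of Hox mRNAs, had -0.72 (SE 0.14 and edgeR adjusted p = 0.0013), on 1512, 1295 and 1006 CPM against 694, 826 and 799.7 CPM. Its groups lay closer together and did not overlap.

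The large-subunit genes that fell least were RPL41, RPL19, RPL12 and RPL10A. RPL10A, the protein of the mobile L1 stalk beside the exit site, was at 1401, 1167 and 1221 CPM in the controls and 944, 970.4 and 1014 CPM in the PRL libraries. The log2 fold change was -0.37 (SE 0.10 and edgeR adjusted p = 0.0067). RPL12, at the base of the stalk, was at 3027, 2302 and 2375 CPM against 1807, 1922 and 1914 CPM (-0.45, SE 0.12 and edgeR adjusted p = 0.0074). RPL19 and RPL41, the shortest ribosomal protein, had -0.51 (SE 0.11) and -0.58 (SE 0.12). The call of RPL19 was lost on log2(TPM + 1) (-0.05, limma adjusted p = 0.373). The call of RPL10A and RPL12 depended on the scaling: on library totals their edgeR adjusted p-values were 0.147 and 0.0527, and on log2(TPM + 1) their differences were 0.05 and 0.02.

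Levels of different genes can be compared only per length, in TPM. Over the 6 libraries the 3 highest canonical genes by mean TPM were RPL41, RPS2 and RPS27. RPL41 was at 12700 ± 548 TPM in the controls and 11660 ± 343 TPM in the PRL libraries, RPS27 at 10680 ± 221 and 10120 ± 168 TPM, and RPS2 at 12430 ± 596 and 8577 ± 209 TPM (SD, n = 3). RPL41 and RPS2 were within their spread of each other in the controls and lay apart in the PRL libraries. The 3 lowest were RPL14 (319 ± 7.18 and 240.2 ± 1.02 TPM), RPL37 (386 ± 19.1 and 328 ± 10.4 TPM) and RPL37A (542 ± 39.2 and 394 ± 20.3 TPM). Effective length, the length implied by the deposited counts and FPKM, was 6994 bases for RPL14, 7524 for RPL37 and 2943 for RPL37A, against a median of 729 bases in the canonical genes. The lengths of RPL14 and RPL37 are far above those of their main known mRNAs, so their low TPM and their rank are doubtful. The length of RPL37A is also well above the median, so its rank is uncertain too. The coefficient of variation given next rests on the same lengths. Across the 77 genes the coefficient of variation of TPM was 75.4% ± 0.395 in the controls and 81.0% ± 0.337 in the PRL libraries (SD, n = 3), so levels were somewhat less even in the latter.

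The divergent paralogs had a smaller median change, a difference that was not tested. Of the 7, 5 fell, 0 rose and 2 did not pass, at a median of -0.54 (log2), and 1 was at least 2-fold lower. On library totals 3 fell, and on log2(TPM + 1) 2 fell and 1 rose. All 7 were read against the canonical partner within each library, which takes out the scaling between libraries. It does not take out the trend on length given below where partners differ in length, as RPL7L1 (4181 bases) and RPL7 (1185 bases) do. The part of length in these ratios was not tested. RPL36AL, a near-copy of RPL36A outside the symbol rule, was added as an eighth pair. In 7 of the 8 pairs the ratio did not overlap between groups; how often the ratios of other gene pairs do so was not examined. In these 7 the exact two-sided permutation test gave p = 0.1, the smallest that 3 against 3 libraries allow (0.114 adjusted over the 8 pairs). No pair could therefore pass a threshold of 0.05 in this test.

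RPL22L1, a close relative of RPL22 whose level RPL22 is known to restrain, was at 273, 201 and 179 CPM in the controls and 186, 198 and 197 CPM in the PRL libraries. These overlap, and the log2 fold change of -0.17 (SE 0.13 and edgeR adjusted p = 0.29) did not pass. Without control 1 the difference was 0.03 (edgeR adjusted p = 0.681), without control 3 it was -0.27 (edgeR adjusted p = 0.0464), and on log2(TPM + 1) it was 0.31 (limma adjusted p = 0.00772), so its direction depends on the scaling and on single controls. RPL22 was at 1169, 956 and 880.4 CPM in the controls and 489.8, 486 and 488 CPM in the PRL libraries (-1.04, SE 0.11). In TPM, RPL22L1 was 25.3%, 22.8% and 22.1% of RPL22 in the controls and 41.3%, 44.2% and 43.9% in the PRL libraries. The ratio was 1.84-fold higher in the PRL cells.

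RPL7L1, a nucleolar relative of RPL7 with a role in ribosome assembly, was at 300.3, 258 and 282 CPM in the controls and 193, 194 and 189 CPM in the PRL libraries (-0.54, SE 0.08 and edgeR adjusted p = 1.9e-04). This call was lost on log2(TPM + 1) (-0.09, limma adjusted p = 0.382). RPL7 fell more, as given above, and the TPM of RPL7L1 was 2.69%, 3.16% and 3.15% of that of RPL7 in the controls and 5.49%, 5.30% and 5.06% in the PRL libraries. RPL26L1 was at 75.3, 60.3 and 69.3 CPM against 51.0, 52.5 and 52.2 CPM, a log2 fold change of -0.40 (SE 0.09 and edgeR adjusted p = 0.0028) that did not pass on library totals (adjusted p = 0.168). RPL26 fell from 2371, 1889 and 2017 CPM to 1164, 1217 and 1283 CPM (-0.78, SE 0.11). In TPM, RPL26L1 was 2.32% ± 0.106 of RPL26 in the controls and 3.0% ± 0.117 in the PRL libraries (SD, n = 3).

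RPL39L and RPS27L went the other way relative to their partners. RPL39L, which is most abundant in testis and in many tumours, was at 140.3, 112 and 110.5 CPM in the controls and 58.5, 54.4 and 63.9 CPM in the PRL libraries (-1.03, SE 0.11 and edgeR adjusted p = 2.0e-05). RPL39 had a log2 fold change of -0.75, and in TPM RPL39L was 11.7% ± 0.323 of RPL39 in the controls and 9.62% ± 0.501 in the PRL libraries (SD, n = 3). RPS27L, a p53-responsive relative of RPS27, was at 112, 93.2 and 86.2 CPM against 54.6, 57.4 and 60.1 CPM (-0.76, SE 0.10). Its TPM was 0.197% ± 0.00510 of that of RPS27 in the controls and 0.169% ± 0.00336 in the PRL libraries. This level rests on an effective length of 6062 bases for RPS27L, which is doubtful; by counts the ratio was 3.92% ± 0.103 and 3.34% ± 0.0665 (SD, n = 3). The count ratios of these pairs differed by -0.28 and -0.23 on the log2 scale.

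RPL3L, a form found in heart and skeletal muscle, and RPL10L, found in testis, were at low counts. RPL3L had 37 to 60 counts per library (3.46, 3.83 and 2.68 CPM against 2.05, 2.31 and 2.34 CPM), and its call (-0.57, SE 0.21 and edgeR adjusted p = 0.032) was lost when any library but control 3 was left out (adjusted p = 0.0689 to 0.111). RPL10L had 8 to 12 counts per library and a log2 fold change of 0.00 (SE 0.36 and edgeR adjusted p = 0.99). In TPM they were 0.0613% of RPL3 and 0.106% of RPL10 in the controls and 0.0899% and 0.1995% in the PRL libraries. RPL36AL, at 1073, 845 and 704 CPM against 426, 448 and 445 CPM (-0.99, SE 0.14), was 75.6% ± 3.86 of the TPM of RPL36A in the controls and 73.5% ± 1.36 in the PRL libraries (exact two-sided permutation p = 0.7, n = 3).

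**Figure D4:**
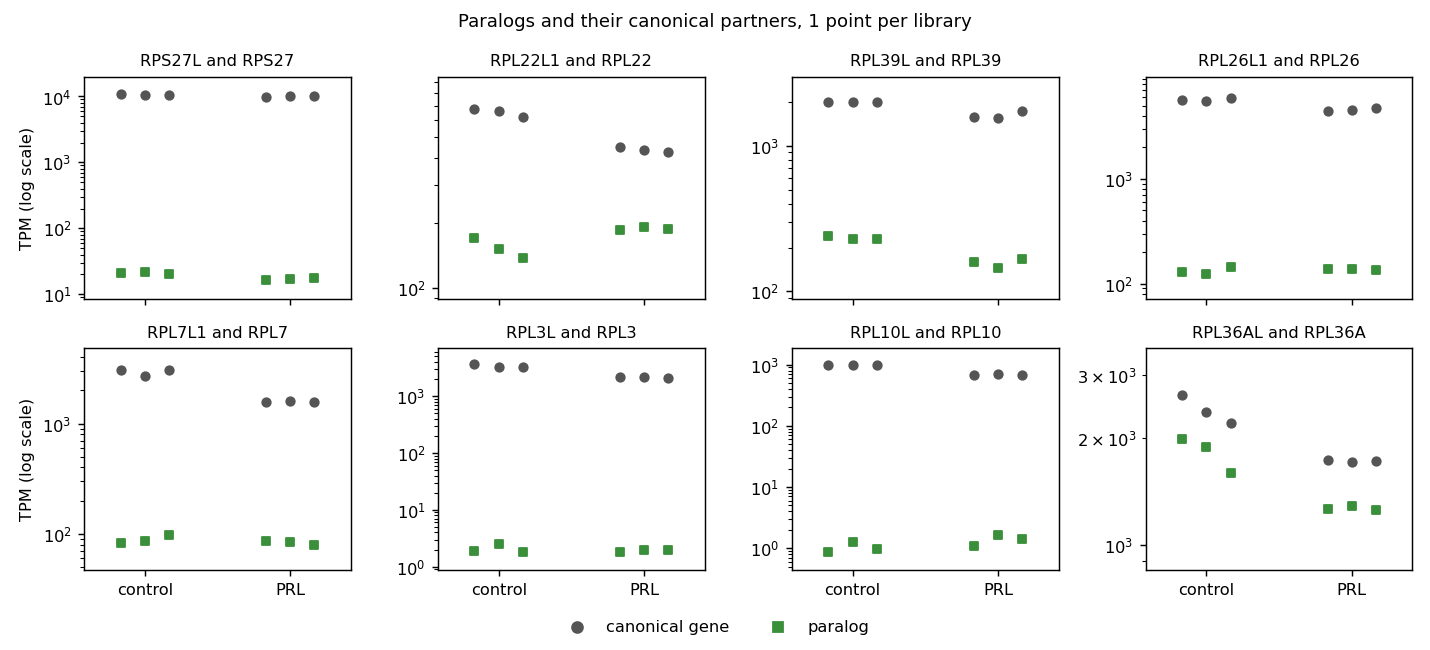
TPM (log scale) of each paralog (squares) and its canonical partner (circles) in the 3 control and 3 PRL libraries. RPL22 and RPL7 are lower in the PRL libraries while RPL22L1 and RPL7L1 stay near their control TPM or above it; RPL36AL and RPL36A are lower together.

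Short genes as a whole were lower in the PRL libraries, and most ribosomal protein genes are short: 48 of the 77 canonical genes had an effective length under 1000 bases, and all genes tested had a median of 3004 bases. Among genes outside the set, 58.3% of those under 500 bases and 63.7% of those of 500 to 1000 bases fell, with medians of -0.65 and -0.55, against 22.2% and a median of 0.14 above 4000 bases. The median of the canonical ribosomal protein genes lay below that of the other genes in each length band. Single canonical genes could lie above it: the least lowered were at -0.52 under 500 bases and -0.37 from 500 to 1000. The canonical median was -0.89 under 500 bases (15 genes), -0.94 from 500 to 1000 (33 genes), -1.16 from 1000 to 2000 (16 genes) and -0.99 from 2000 to 4000 (10 genes), where other genes had 0.08. The 3 genes above 4000 bases had -0.87: RPL14 and RPL37, whose lengths are doubtful, and RPL27A (4486 bases). The band below them holds RPS23 (3203 bases), RPL37A (2943 bases), RPL23 (2657 bases) and RPS14 (2111 bases), among others. The canonical median was 729 bases. Where a deposited length is too high, a gene is set beside genes with longer transcripts. The bands above 1000 bases may therefore not compare genes at matched length. The comparison by band, the correlation with length and the trend-removed median all rest on these deposited lengths. The log2 fold change of the 77 genes varied little with log2 length (Pearson r = -0.15, Spearman rho = -0.22, across genes, which share their libraries). With each library's trend on length removed, the canonical median was -0.60 and 72 of the 77 fell.

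The set is also abundant. Among genes above 1000 CPM, the 52 outside the set had a median log2 fold change of -0.47 and 59.6% fell, while the 61 canonical genes had a median of -0.98. Median GC content was 50.3% in the canonical genes and 50.4% in all genes tested. Across the 77 genes the correlation of log2 fold change with GC content was r = 0.18 (rho = 0.16). With log2 mean TPM it was r = 0.15 (rho = 0.175), and with the number of pseudogenes named after each gene r = -0.10 (rho = -0.125). These are descriptions over genes of the same libraries. Pseudogenes named after these genes numbered 0 (RPL28) to 91 (RPL23A) per gene with a median of 10 (GENCODE 29). The count took in processed pseudogenes, intronless copies of these mRNAs elsewhere in the genome, and also any annotated as unprocessed. How reads shared with them were counted is not named in the sources used here, so the level of a single gene is uncertain.

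**Figure D5:**
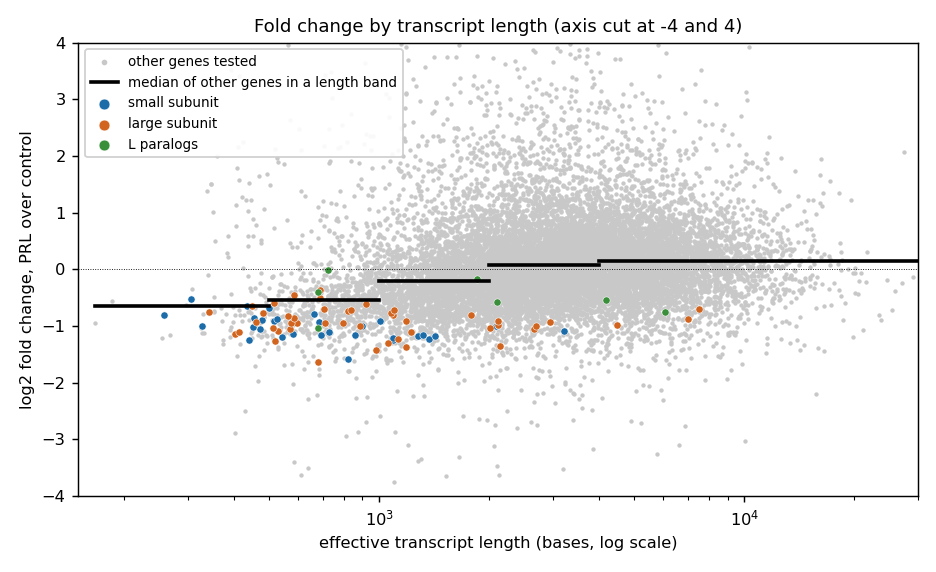
Log2 fold change of PRL over control against effective transcript length (log axis) for the tested genes with a length; 110 other genes lie outside the plotted range. The medians of other genes (black lines) run from -0.65 in the shortest band to 0.14 in the longest, and the medians of the canonical ribosomal protein genes lie below them in each band.

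A pyrimidine run at the annotated start did not separate larger from smaller falls. The 53 canonical genes with the run had a median log2 fold change of -0.94 and the 9 with a start but no run -1.02, among them RPL9, RPS26, RPS4X, RPL17 and RPS15. Some of these 9, such as RPL9 and RPL17, hold pyrimidine runs a few bases farther from the start. The comparison therefore does not contrast genes with and without the TOP motif. Over all genes tested the medians were 0.01 with the run (3330 genes) and 0.00 without it (8074 genes). Of the sequences shown, the run was found in RPS3A (-1.59), RPLP0 (-1.29) and RPL10A (-0.37) alike.

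The ribosomal proteins that the symbol rule misses were lower too. Of 4 such genes all 4 fell (median -0.85), among them FAU, made as a fusion with a ubiquitin-like protein, RACK1, the signalling scaffold on the small subunit, and RPL36AL. The median was -0.37 on log2(TPM + 1) and -0.39 with the length trend removed, with all 4 lower in both. RACK1 was at 4081, 3365 and 3243 CPM in the controls and 1750, 1761 and 1800 CPM in the PRL libraries (-1.01, SE 0.11), and FAU at 678, 530.4 and 524 CPM against 342, 369.6 and 368 CPM (-0.68, SE 0.11). Of 22 other mRNAs of the TOP class, mainly translation factors, 20 fell and 0 rose, with a median of -0.59. EEF1B2, an exchange factor of elongation factor 1, fell from 441, 330.0 and 374 CPM to 121, 131 and 135 CPM (-1.56, SE 0.11 and edgeR adjusted p = 1.4e-06), and EIF3L and EIF3F, subunits of initiation factor 3, had -1.13 (SE 0.09) and -1.14 (SE 0.10). On log2(TPM + 1) 9 of these 22 fell and 1 rose.

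Lists of genes that make or assemble ribosomes had medians nearer to 0. Of 38 ribosome biogenesis factors 24 fell and 1 rose (median -0.43). NOP58 and NOP56, core proteins of the box C/D particles that methylate ribosomal RNA, had log2 fold changes of -1.23 (SE 0.09) and -0.97 (SE 0.07), and GNL3L, a nucleolar GTPase, -1.54 (SE 0.10). Of 15 genes of the RNA polymerase I machinery 8 fell and 3 rose (median -0.38): POLR1F and POLR1G fell by 0.94 and 0.95 on the log2 scale, and TAF1D, a subunit of the promoter-selectivity factor, rose by 0.99 (SE 0.11). Of 17 ribosomal protein carriers and genes of the 5S RNP-MDM2 path 13 fell and 0 rose (median -0.38), among them IPO5, an importin for ribosomal proteins (-1.09, SE 0.08), NAP1L1, a histone chaperone (-0.90, SE 0.08), and CDKN2A (-1.0, SE 0.08). On log2(TPM + 1) the medians of these 3 lists were 0.02, 0.08 and 0.07, on the other side of 0, with 13, 3 and 4 genes lower and 9, 4 and 4 higher. The median of all genes moved by that scaling too, to 0.39.

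Of 20 tested regulators of TOP mRNAs and of ribosome production, 7 fell, 7 rose and 6 did not pass, with a median of 0.06. These shares are near those of all genes (30.5% lower, 32.4% higher). MXI1 and MXD1, which compete with MYC for its partner MAX, rose from 15.8, 14.1 and 20.7 CPM to 71.3, 67.8 and 70.7 CPM (log2 fold change 2.05, SE 0.12 and edgeR adjusted p = 4.8e-07) and from 3.93, 4.02 and 2.87 CPM to 10.6, 11.4 and 10.2 CPM (1.58, SE 0.15). RPS6KB2, one of the S6 kinase genes, fell from 189, 160.4 and 149 CPM to 94.4, 90.8 and 95.2 CPM (-0.83, SE 0.09). LARP1, the TOP-binding protein, was at 205, 244 and 197 CPM against 201, 194 and 188 CPM, and its log2 fold change of -0.15 (SE 0.09 and edgeR adjusted p = 0.18) did not pass. On log2(TPM + 1) 1 of these regulators fell and 11 rose. That scaling moved the median of all genes to 0.39, and 11.1% of all genes fell on it. The share of all genes that rose on it is not given here, so these 11 are not read as a result about the regulators. LARP1 was singled out after its values were seen.

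The mitochondrial ribosome has its own proteins, also encoded in the nucleus. Of 78 such genes 70 fell and 5 rose (median -0.60). MRPL48 was at 77.8, 67.7 and 67.9 CPM in the controls and 29.1, 29.8 and 32.2 CPM in the PRL libraries (-1.23, SE 0.09), and MRPS6 and MRPL51 had -1.01 (SE 0.08) and -1.04 (SE 0.10). Their summed share of counts was 0.915% ± 0.0495 in the controls and 0.716% ± 0.00802 in the PRL libraries (SD, n = 3). On log2(TPM + 1) 34 fell and 10 rose, with a median of -0.16. The cytoplasmic genes were lower by more at the median, -0.98; no test of that difference was made.

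The count of lower genes depends on the scaling for the table as a whole: 17% of all genes fell on library totals and 11.1% on log2(TPM + 1), against 30.5% with TMM. For the ribosomal protein genes 78 of 84 fell on library totals and 75 of 84 on log2(TPM + 1), where 1, RPL22L1, rose. The canonical median minus the median of all genes was between -1.07 and -0.91 (log2) in every scaling, filter and test tried, except -0.82 without control 1, -0.60 with the length trend removed and -0.61 with length and GC trends removed.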

How the data were processed

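Trizol-extracted total RNA of 6 T47D libraries was sequenced, per the labels. HISAT2 2.1.0, Bowtie2 2.3.4.3 and build GRCh38.p13 are listed, without roles, in the submitters' processing notes; no source used here names the counter, annotation or strand setting. Per the file headers, the authors deposited for each library an estimated count per gene and, scaled for length and depth, FPKM and TPM values. Counts were rounded to whole numbers here. Samples were grouped by title.

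Genes were tested in R 4.3.3 with edgeR 4.0.16 (robust quasi-likelihood, TMM, edgeR's low-count filter) over 14076 genes, with Benjamini-Hochberg adjustment and a threshold of 0.05. The standard error is the absolute log2 fold change over the root of F. Alternatives used other scalings and filters, DESeq2 1.42.0, limma 3.58.1, a replicate block, log2(FPKM + 1) or log2(TPM + 1) in limma, length and GC trends (mgcv 1.9.3) and each library left out. The test was checked on simulated counts with the same spread in both groups and few changed genes. That check does not bear on the wider spread of the controls or on the choice of scaling. Starts came from RefSeq, GRCh38.p14, and pseudogenes from GENCODE 29.

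The ribosomal protein genes and the lists beside them were chosen with earlier results of these data known. Single genes were named by a fixed rule: role, paralog pairs, the 4 largest and 4 smallest falls per subunit, the 3 highest and 3 lowest by TPM, and the 3 genes of each list with the smallest p. The values of 1 gene that this rule named are not reported here. The snoRNA host genes were not analysed here. P-values rest on the spread between libraries, which edgeR pools over both groups although the controls varied more. They do not separate PRL from any other difference between the groups of cultures. A count of 0 allows up to 3 counts per library.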

Additional observations from a re-analysis of the deposited data

How the results depend on the processing

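The number of ribosomal protein genes called lower stayed at 75 to 83 under every alternative tried, and the canonical median stayed below 0. That median, -0.98, was -0.71 on library totals, -0.71 on log2(FPKM + 1), -0.52 on log2(TPM + 1), -0.60 with each library's length trend removed and -0.61 with length and GC trends removed, an alternative chosen after seeing the data. With 1 library left out it ran from -1.03 to -0.81. The difference in the set's share, -6.37 percentage points of counts, was -8.55 points of TPM and of FPKM, and the small-to-large difference of -0.0405 was -0.0792 as a ratio of median TPM. The direction turned for RPL22L1 (0.31), RPL26L1 (0.0551), RPL12 (0.0152) and RPL10A (0.0536) on log2(TPM + 1), for RPL26L1 (0.052), RPL12 (0.0123) and RPL10A (0.0768) with the length trend removed, and for RPL26L1 (0.0838), RPL12 (0.0306) and RPL10A (0.0895) with length and GC removed; the cause was not tested. Of these only RPL22L1 on TPM passed the threshold. RPL22L1 and RPL10L, which pass in neither direction with TMM, were also above 0 without passing in some settings: RPL22L1 on library totals (0.0999) and log2(FPKM + 1) (0.11), and RPL10L on library totals (0.248) among others. RPS27, RPL41 and RPL19 lost their call with the length trend removed, and RPS27, RPL19, RPL7L1 and RPL3L on log2(TPM + 1).

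Replicate numbers did not pair the samples: correlations of same-numbered libraries' deviations were -0.125, 0.023 and -0.079. With the replicate block 81 of 84 fell, RPL3L being lost (adjusted p = 0.0562). Counts of RPL10L and RPL3L are too low for small differences to be detectable at this depth.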
